A study of Capsicum chinense and Capsicum frutescens with 8 samples.

Results

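Copper miRNAs are small RNAs that plants make when copper is scarce. In Arabidopsis the transcription factor SPL7 switches on miR397, miR398, miR408 and miR857 at low copper, and these silence mRNAs of copper-binding proteins. miR398 targets copper/zinc superoxide dismutases and their copper chaperone, miR408 targets plantacyanin and laccases, and miR397 and miR857 target laccases, which help to polymerise lignin. In the same species miR397 acts from the 5p arm of its hairpin, and miR398 and miR408 act from the 3p arm.

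These families were followed in stem, flower, fruit and leaf of the peppers Capsicum chinense (Bhut jolokia) and C. frutescens (Accession 4). Each species was represented by 1 genotype, grown in a glass house to maturity without any treatment. Each of the 8 libraries, 1 per species and organ, was made from pooled RNA of 3 biological replicates. Leaves were fully expanded, flowers were buds of mixed size and age, and fruit pooled stages from 5 to 60 days after flower opening. No value therefore has a replicate of its own group, and an organ's cell makeup and its RNA per cell cannot be told apart. The organ labels were not checked, since the sheets list small RNAs and hold no organ marker genes.

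Members were all conserved entries named miR397, miR398, miR408 or miR857, whatever their species prefix, letter or arm. They comprised 46 entry names of 2312, listed in 144 rows of 5915, and held 16791 of 6646698 listed reads. miR397 had 9 names and 146 reads, miR398 had 19 names and 14115 reads, and miR408 had 18 names and 2530 reads. miR857 was listed in none of the 8 libraries. A count of 0 allows up to 3 reads, which is 2.12 reads per 1000000 listed reads (RPM) in the deepest library, C. chinense stem, and 12.2 RPM in the shallowest, C. frutescens leaf. The other 3 families passed the filter, which asked for 10 or more reads in 2 or more libraries. Together the families held 0.235% ± 0.361 (SD, n = 8 libraries) of the listed reads, lowest in C. chinense flower (0.0102%) and highest in C. frutescens fruit (1.08%).

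Listed conserved reads per library ranged from 246508 to 1412110. miR166, a regulator of leaf polarity, took 42.5% to 93.9% of them, so shares are given with and without miR166 in the total. Intervals are 95% intervals of counting error only. Values of a species are listed in the order stem, flower, fruit, leaf unless the organ is named.

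The sheets print 1 sequence per entry and library, and those with most reads are shown because they tell which strand and which variant of each family was read. Capitals mark a 12-base core, the 12 letters found in most rows of that family, or their counterpart on the opposite strand with up to 2 mismatches. The cores searched were UUGAGUGCAGCG for miR397, UGUUCUCAGGUC for miR398 and ACUGCCUCUUCC for miR408, on both strands. Exact matches to these cores, on either strand, were in 0% of the rows of the other conserved families (5895, 5854 and 5852 rows) and in 0 of the 3386 rows of predicted miRNAs. With mismatches allowed, at most 0.205% of the rows of other families matched a core on the same strand and at most 0.0854% on the opposite strand. Each sequence is given from the library where the entry had most reads, except sbi-miR398, whose opposite-strand form is shown.
stu-miR397-5p (C. frutescens fruit): aUUGAGUGCAGCGuugaugac
mdm-miR397b (C. frutescens flower): UUGAGUGCAGCGuugaugaacu
gma-miR397b-3p, opposite strand (C. frutescens fruit): aucuaCGCUGCACUCAAucaugu
gma-miR398c (C. frutescens fruit): acaugUGUUCUCAGGUCgccccug
stu-miR398b-3p (C. frutescens fruit): cuugUGUUCUCAGGUCaccccuu
zma-miR398a-5p (C. frutescens stem): caacaugUGUUCUCAGGUCgcccc
zma-miR398b-5p, no core (C. frutescens flower): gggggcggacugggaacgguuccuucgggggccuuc
sbi-miR398, opposite strand (C. frutescens leaf): agggggcGACCUGAGAACAcaugu
ppt-miR408b (C. frutescens stem): ugcACUGCCUCUUCCcuggcuuucuu
smo-miR408 (C. chinense fruit): ugcACUGCCUCUUCCcuggcuuuu
stu-miR408a-3p (C. chinense leaf): ugcACUGCCUCUUCCcugguuuu
stu-miR408b-5p, opposite strand (C. frutescens fruit): acggGGACGAGGCAGAgcaugaaa
stu-miR408a-5p, opposite strand (C. frutescens fruit): acagGGACGAGGCAGCgcaugaa

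The names carry a species prefix of the database entry (for example gma for soybean, stu for potato and ppt for a moss) and do not mark separate pepper genes. The leading miR408 entry was ppt-miR408b in 4 libraries and smo-miR408 in the other 4, and both sequences shown hold the core 3 bases from their start. The printed start of miR408 was nearly fixed. Only 1 sequence is printed per entry and library, so where single reads start is not known. Of the reads under core-bearing miR408 entries, 89.9% lay under sequences printed with 3 bases before the core and 9.27% with 4. For miR398 the printed start varied more. Sequences with 5 bases before the core held 62.4% of its core-bearing reads, all in C. frutescens fruit under gma-miR398c. Those with 3 bases held 24.6%. Printed miR397 sequences ran from 21 to 24 nt, those of miR408 from 19 to 32 nt and those of miR398 from 21 to 36 nt. Entries printed at 20 to 24 nt, the range of plant miRNAs, held 95.3% of miR398 reads and 50.9% of miR408 reads, against 4.20% of all listed reads, miR166 included. By rows, 82.0% of miR398 rows, 82.5% of miR408 rows and 79.0% of all conserved rows were printed at that length. These shares follow the printed sequence and are not lengths of single reads.

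miR398 had the widest range of the families and was higher in C. frutescens. The C. chinense libraries had 98, 43, 104 and 383 reads, which are 69.4, 39.8, 169.5 and 472 RPM of all listed reads. The C. frutescens libraries had 3569, 395, 9303 and 220 reads, or 3151, 957, 9922 and 892 RPM. All 4 C. frutescens libraries thus lay above all 4 of C. chinense. Of the 71 families past the filter, 4.23% were separated in this way, miR398 among them, and 2.82% were separated with C. chinense above.

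With miR166 left out of the total, miR398 stood at 640, 650, 1803 and 1298 RPM in C. chinense and at 13440, 1665, 25136 and 2691 RPM in C. frutescens. The species then overlapped, since C. frutescens flower lay below C. chinense fruit, and 0% of the 70 remaining families were separated with C. frutescens above. On both totals C. frutescens fruit was highest and C. frutescens stem second, and their intervals did not meet (24634 to 25645 and 13006 to 13885 without miR166). The lowest positions, C. chinense stem and flower, did not differ beyond counting error without miR166 (519 to 779 and 470 to 875).

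**Figure D1:**
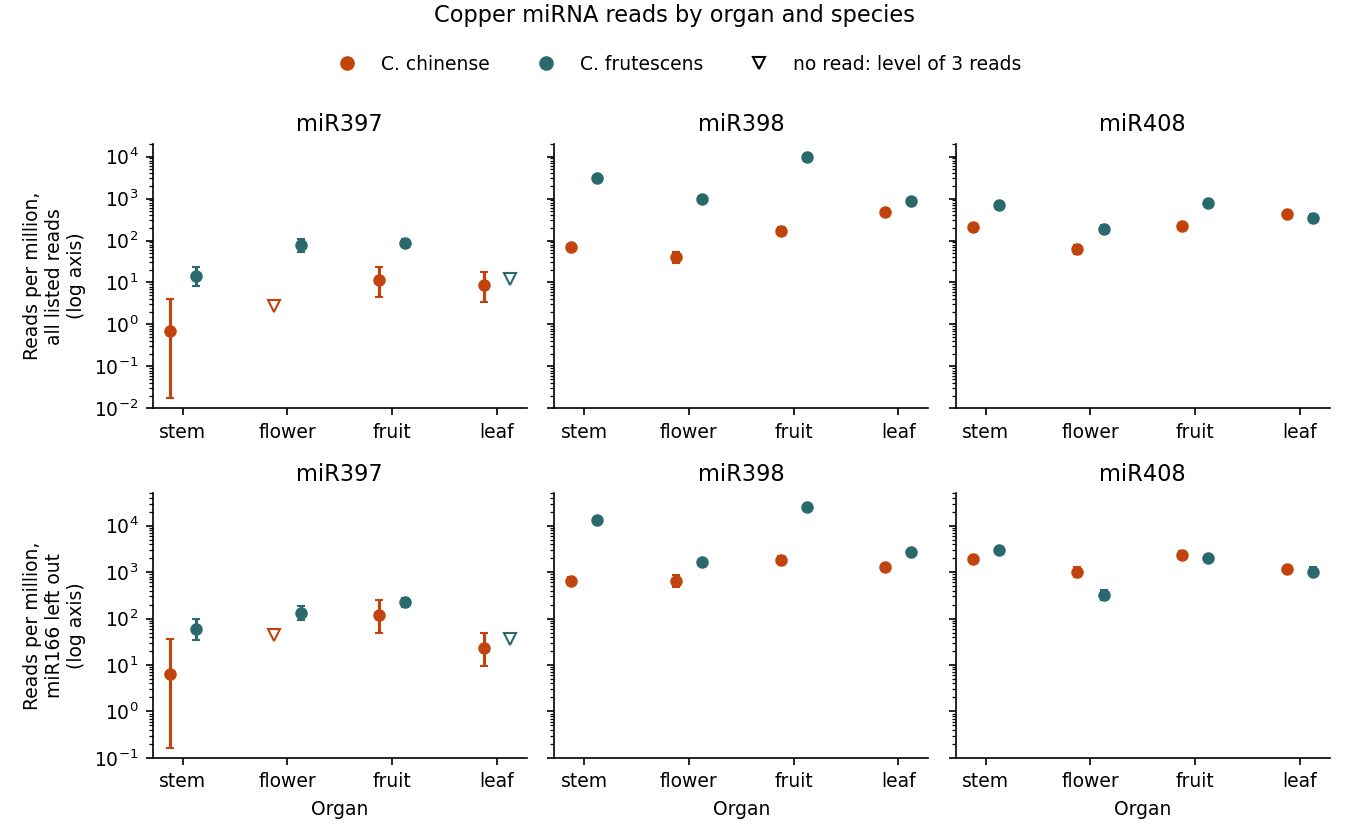
Reads of miR397, miR398 and miR408 by organ, as reads per 1000000 listed reads (upper row) and with miR166 left out (lower row), on log axes. Points are single libraries with 95% counting intervals, and open triangles mark 3 reads where no read was listed; miR398 in C. frutescens stem and fruit stands highest in both rows.

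miR408 varied less. The C. chinense libraries had 299, 67, 137 and 339 reads, or 212, 62.1, 223 and 418 RPM. The C. frutescens libraries had 786, 77, 741 and 84 reads, or 694, 187, 790 and 341 RPM. Flower was lowest in both species, and the species overlapped.

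With miR166 left out, miR408 had a mean of 1622 ± 651 (SD, n = 4 organs) RPM in C. chinense and of 1579 ± 1149 (SD, n = 4 organs) in C. frutescens. The difference between these means was smaller than the spread over organs in either species. C. frutescens stem was highest at 2960 and C. frutescens flower lowest at 325 RPM.

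miR397 was sparse. The C. chinense libraries had 1, 0, 7 and 7 reads, and those of C. frutescens had 16, 32, 83 and 0. The highest levels were 88.5 (70.5 to 109.7) and 77.5 (53.0 to 109.5) RPM in C. frutescens fruit and flower, which did not differ beyond counting error. Without miR166 miR397 stood at 6.53, 0, 121 and 23.7 RPM in C. chinense and at 60.3, 135, 224 and 0 RPM in C. frutescens. There C. chinense fruit (48.8 to 250) did not differ beyond counting error from C. frutescens flower (92.3 to 190). The leaf libraries could not be ordered, because 0 reads in C. frutescens leaf have an upper limit of 15.0 RPM and C. chinense leaf had 8.62.

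Within an organ, 1 library stood against 1, so the ratios carry counting intervals and no test. The share of miR398 of all listed reads was 45.4-fold (37.1 to 56.1) higher in C. frutescens in stem, 24.0-fold (17.5 to 33.7) in flower, 58.5-fold (48.3 to 71.7) in fruit and 1.89-fold (1.60 to 2.24) in leaf. Without miR166 these were 21.0-fold in stem, 2.56-fold in flower, 13.9-fold in fruit and 2.07-fold in leaf. The direction held in every organ on both totals, but the flower ratio fell below 4-fold.

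The share of miR408 was 3.28-fold (2.86 to 3.76), 3.01-fold (2.14 to 4.23) and 3.54-fold (2.95 to 4.28) higher in C. frutescens in stem, flower and fruit. In leaf the ratio was 0.816 (0.635 to 1.04), which spans no difference. Without miR166 the stem ratio was 1.52 (1.33 to 1.74). In flower it turned to 0.321 (0.228 to 0.452), 3.12-fold higher in C. chinense, and in fruit to 0.843 (0.702 to 1.02). The species direction of miR408 in flower thus turned with the total.

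miR397 was 7.76-fold (3.60 to 19.9) higher in C. frutescens fruit, or 1.85-fold (0.858 to 4.74) without miR166. It was 2.53-fold with TMM library sizes and 22.3-fold (5.93 to 187) over core entries alone, since 5 of the 7 C. chinense fruit reads lay under opposite-strand entries. In flower, with 3 reads put in for the count of 0 in C. chinense, it was 27.9-fold higher in C. frutescens. The lower limit of the exact interval, taken from 32 against 0 reads, was 21.4-fold. Without miR166 these values were 2.98-fold and 2.28-fold.

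Of the 9 pairs of family and organ whose 2 libraries summed to 50 reads or more, 4 lay 4-fold or more higher in C. frutescens, 3 of miR398 and 1 of miR397. 0 of the 9 lay 4-fold or more higher in C. chinense, where 6.12% of all families did in stem, 10% in flower, 10.5% in fruit and 7.14% in leaf. Among all families with that many reads, 28.6% in stem, 37.5% in flower, 57.9% in fruit and 2.38% in leaf were 4-fold or more higher in C. frutescens. In fruit a ratio past 4-fold was thus common, and the median ratio of all families was 5.51 there, against 1.75 in stem, 1.97 in flower and 1.13 in leaf. The miR398 ratios of stem, flower, fruit and leaf lay above these medians, as did the miR397 ratio of fruit (7.76). The miR408 ratios lay above the medians in stem (3.28) and flower (3.01) and below them in fruit (3.54) and leaf (0.816). Without miR166, 2 of the 9 pairs stayed past 4-fold, miR398 in stem and fruit. The share of all families past 4-fold was not counted on that total, so this count cannot be set against it.

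**Figure D2:**
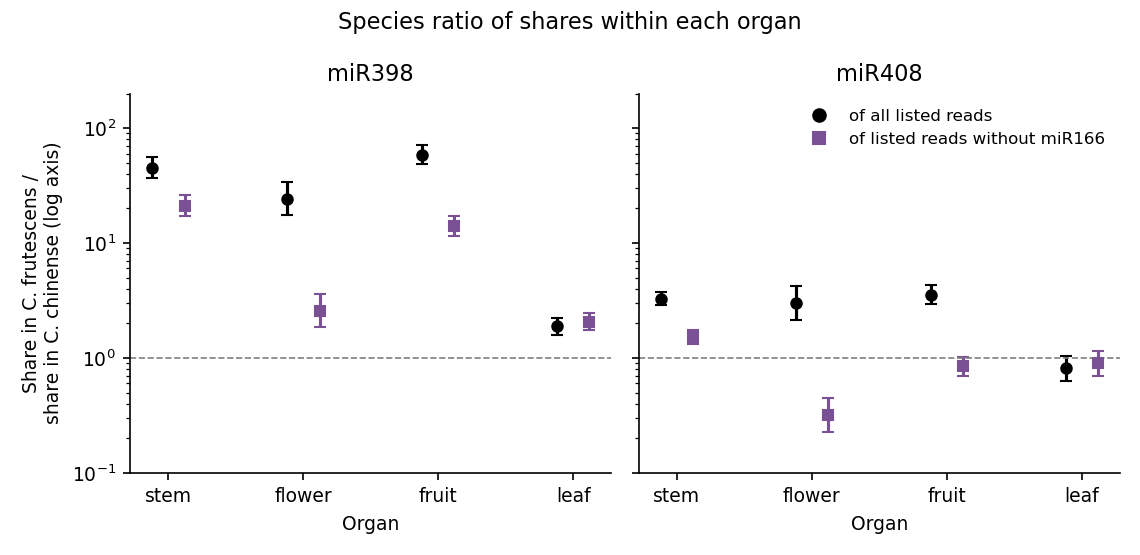
Share in C. frutescens divided by share in C. chinense for miR398 and miR408 in each organ, on a log axis, with 95% counting intervals. Circles use all listed reads and squares leave miR166 out; miR398 lies above 1 throughout, and miR408 in flower moves from 3.01 to 0.321.

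The ratio of miR398 to miR408 reads needs no total. It was 0.328 (0.258 to 0.413) in C. chinense stem, 0.642 (0.427 to 0.955) in flower, 0.759 (0.583 to 0.987) in fruit and 1.13 (0.974 to 1.31) in leaf. In C. frutescens it was 4.54 (4.20 to 4.91) in stem, 5.13 (4.01 to 6.64) in flower, 12.6 (11.6 to 13.5) in fruit and 2.62 (2.03 to 3.41) in leaf. Thus miR408 outnumbered miR398 in 3 C. chinense organs, the leaf ratio spanned 1, and miR398 outnumbered miR408 in every C. frutescens library.

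The species did not overlap. The mean log2 ratio was -0.62 ± 0.74 (SD, n = 4 organs) in C. chinense and 2.40 ± 0.94 (SD, n = 4 organs) in C. frutescens, a difference of 3.01 or 8.07-fold. With the organs kept together, the ratio was higher in C. frutescens in 4 of 4 organs, by 13.9-fold in stem, 7.99-fold in flower, 16.5-fold in fruit and 2.32-fold in leaf. The ratio was chosen after its values were seen, so it is a description and no test is given. Of 70 families set against miR408 in the same way, 1.43% lay higher in every C. frutescens library, which is miR398 alone. That miR398 would be counted was known beforehand, and denominators other than miR408 were not tried. Each species is 1 genotype, so a difference between species cannot be told apart from one between these accessions.

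**Figure D3:**
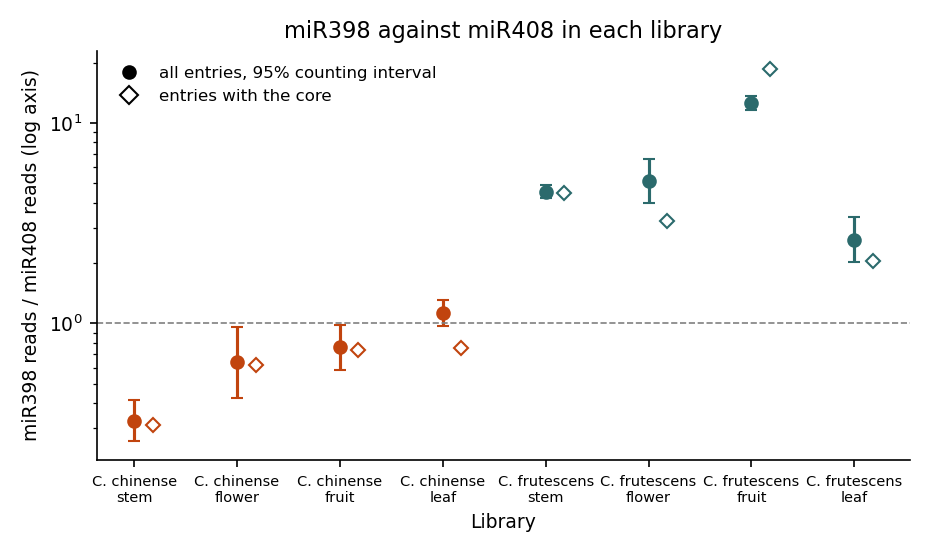
Reads of miR398 divided by reads of miR408 in each library, on a log axis; filled circles use all entries with 95% counting intervals, and open diamonds use entries whose printed sequence holds the core. The C. chinense libraries lie between 0.328 and 1.13 and the C. frutescens libraries between 2.62 and 12.6.

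Across species with the organs as blocks, miR398 had a log2 fold change of 3.62 (SE 1.28, C. frutescens over C. chinense) and did not pass over the 71 families tested (adjusted p = 0.213 by edgeR's quasi-likelihood test with Benjamini-Hochberg adjustment). miR397 stood at 2.17 (SE 1.64, edgeR adjusted p = 0.660, and from 0.37 without C. chinense flower to 3.50 without C. chinense leaf) and miR408 at 0.41 (SE 0.84, edgeR adjusted p = 0.892). The median of all families was 0.20, and it was 0.90 when total listed reads replaced the TMM scaling. Of all families tested, 1.41% passed for this contrast. The DESeq2 test on the same model called miR398 (log2 fold change 3.44, adjusted p = 0.000123), among 16.9% of all families. With each library left out in turn, miR398 ranged from 2.64 to 4.31 and never passed in edgeR (lowest adjusted p = 0.0807).

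No organ contrast of a member passed in the edgeR test. Each organ was set against the mean of the other 3 organs, with species as block. miR398 had log2 differences of -0.03 (SE 1.20) in stem, -1.16 (SE 1.30) in flower, 1.13 (SE 1.14) in fruit and 0.06 (SE 1.31) in leaf. miR408 had 0.93 (SE 0.89), -0.85 (SE 1.0), 0.33 (SE 0.91) and -0.41 (SE 0.98) in the same order. miR397 had -1.84 (SE 1.65), 1.74 (SE 1.67), 1.50 (SE 1.38) and -1.39 (SE 1.91). The edgeR test called 0 of the 15 pairs of member and contrast, of which 1, miR398 between species, had an unadjusted p under 0.05. In each organ contrast 0% of all families passed. limma-voom called 0 of the 15 pairs, and DESeq2 called 2, miR398 between species and miR408 lower in flower (adjusted p = 0.0492, where 15.5% of all families passed).

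The place of leaf among the organs differed between the species for miR398. With all listed reads, leaf was the highest organ in C. chinense at 472 RPM (426 to 521). In C. frutescens leaf, at 892 RPM (778 to 1018), and flower, at 957 RPM (865 to 1056), lay below stem and fruit and did not differ beyond counting error. With miR166 left out, fruit was highest in both species and the leaf no longer stood at either end.

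With miR166 in the total, 2 of the 3 pairs of families were correlated by Pearson's r after adjustment, and 1 by Spearman's rho. The share of all pairs of families that would pass was not computed, so these counts cannot be set against it. No pair passed with miR166 left out. Pearson's r of log2 shares (0.5 reads added) between miR398 and miR408 was 0.861 over the 8 libraries (exact permutation p = 0.00625, adjusted over 3 pairs 0.0188), and Spearman's rho was 0.738 (exact permutation p = 0.0458, adjusted 0.0688). Without the libraries farthest from the median of miR398, C. chinense flower and C. frutescens fruit, r was 0.677 (n = 6). Between miR397 and miR398 r was 0.787 (exact permutation p = 0.0226, adjusted 0.0339) and rho 0.881 (exact permutation p = 0.00724, adjusted 0.0217), and r fell to 0.477 without C. chinense flower and stem. Between miR397 and miR408 r was 0.610 (exact permutation p = 0.105, adjusted 0.105) and rho 0.571 (exact permutation p = 0.151, adjusted 0.151), and r was 0.09 without the same libraries. These rho values also used shares with 0.5 reads added, which ranks libraries without a miR397 read by their depth. C. frutescens leaf (0 reads) thus ranked above C. chinense stem (1 read). The rho call for miR397 and miR398 rests in part on this order, and rho without added reads was not computed.

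With miR166 left out, r was 0.395 for miR398 and miR408 (exact permutation p = 0.327, adjusted 0.490, and -0.22 without C. frutescens fruit and stem), 0.605 for miR397 and miR398 (exact permutation p = 0.124, adjusted 0.373) and 0.07 for miR397 and miR408 (exact permutation p = 0.884, adjusted 0.884). Centred within each species, with miR166 in the total, miR398 and miR408 had r = 0.875 (exact permutation p = 0.00610, adjusted 0.0183). All permutations ran over all libraries whatever their species or organ. The p of the centred values therefore does not allow for the centring and is no test within species. The shares within a library have the same total, which miR166 sets for the most part. The species could not be taken apart further, since each has 4 libraries. The call for miR398 and miR408 was lost on leaving out C. chinense flower (exact permutation, adjusted p = 0.0881) and on leaving out the fruit of C. frutescens (0.0673). The call for miR397 and miR398 was lost without C. chinense stem, flower or leaf or C. frutescens fruit (exact permutation, adjusted p = 0.0827, 0.133, 0.0667 and 0.134). miR397 and miR408 passed without C. frutescens flower (r = 0.837, exact permutation, adjusted p = 0.0210).

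By Spearman's rho of shares without miR166 over the 8 libraries, among 69 other families, the closest to miR398 were miR168 (0.905), a regulator of the silencing protein AGO1, miR1446 (0.833) and miR8038 (0.764). The closest to miR408 were miR6027 (0.786), miR170 and miR156 (both 0.762), the last a regulator of SPL genes. For miR397 they were miR164 (0.575), a regulator of NAC genes, miR8038 (0.549) and miR1446 (0.539). Among the members, miR398 ranked 4 (0.527) and miR408 ranked 7 (0.323) for miR397. For miR398, miR397 ranked 6 (0.527) and miR408 ranked 8 (0.476). For miR408, miR398 ranked 13 (0.476) and miR397 ranked 23 (0.323). miR8038 had 35 reads, 14 in C. frutescens stem and 21 in C. frutescens fruit, so its rho rests on tied zeros in the other 6 libraries. These values describe 8 libraries that share organs and totals.

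The arm named in an entry was not always the strand printed. Of the 16791 member reads, 7.66% lay under names ending in 5p, 6.88% under names ending in 3p and 85.5% under names without an arm. Read from the cores instead, 2.39% of the reads were of the 5p strand, taking the core of miR397 as 5p and the cores of miR398 and miR408 as 3p. The miR398 core, which stu-miR398b-3p carries, was also printed for 476 reads under 5p names, 466 of them as zma-miR398a-5p. For miR408, bra-miR408-5p carried the 3p core in 24 reads. In miR397, gma-miR397b-3p was printed with the core in C. chinense stem and with the opposite strand in C. chinense fruit and C. frutescens stem and fruit.

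The opposite, 5p strand of miR408 was concentrated in C. frutescens fruit. There stu-miR408b-5p had 147 reads and stu-miR408a-5p 89, and opposite-strand entries held 238 of 741 reads, or 32.1% (28.8 to 35.6). In the other 7 libraries they held 0 to 7 reads, from 0% (0 of 67 reads, interval 0 to 5.36, C. chinense flower) to 3.90% (3 of 77 reads, C. frutescens flower). In C. frutescens stem, with 786 miR408 reads, the share was 0.382% (0.0788 to 1.11). The interval of C. frutescens fruit met that of no other library. Counted by core alone, miR408 stood at 534 RPM in C. frutescens fruit, below the 689 of C. frutescens stem, whereas with all entries fruit lay above stem. Core entries alone were 2.43-fold (2.00 to 2.96) higher in C. frutescens fruit than in C. chinense fruit.

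miR398 showed no such strand shift in fruit, with 1 opposite-strand read of 9303. In C. frutescens leaf 17 of 220 reads, 7.73% (4.57 to 12.1), lay under sbi-miR398 printed as the opposite strand, while elsewhere sbi-miR398 carried the core.

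**Figure D4:**
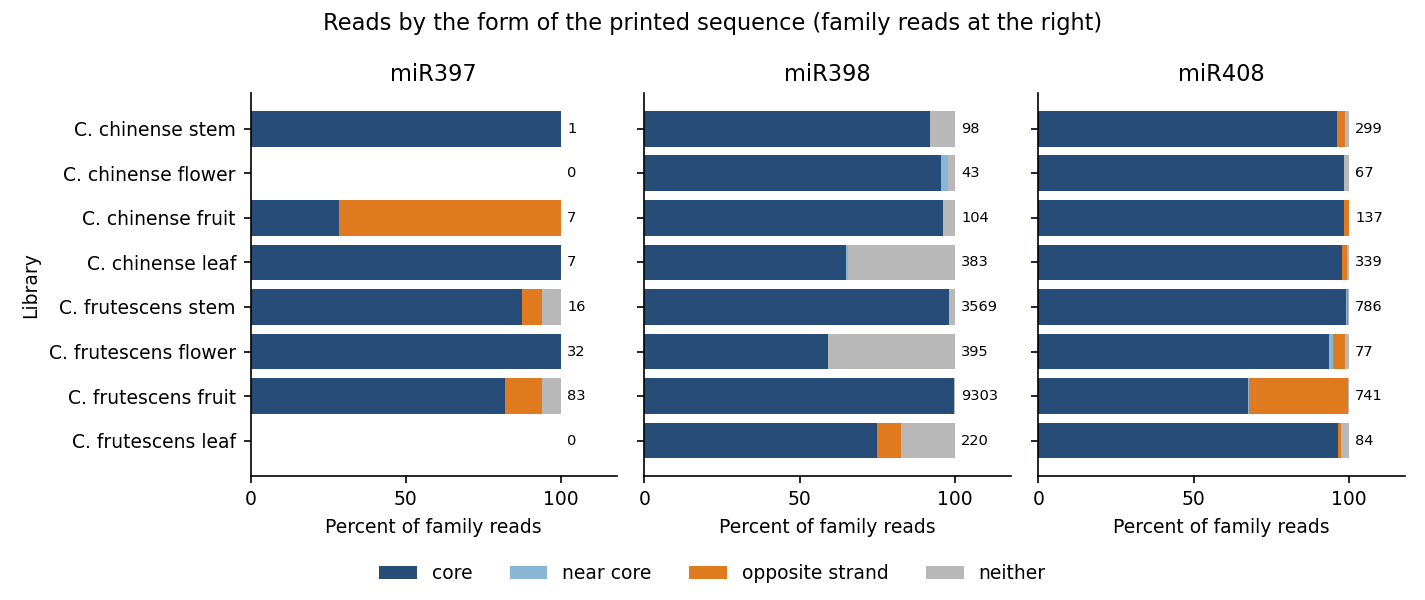
Percent of each family's reads by the form of the printed sequence (core, core with up to 2 mismatches, opposite strand, neither) in each library, with the family's reads at the right. The opposite strand of miR408 reaches 32.1% in C. frutescens fruit, and miR398 entries without the core reach 41.0% in C. frutescens flower.

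A part of the miR398 reads lay under zma-miR398b-5p, whose printed sequences of 25 to 36 nt hold the miR398 core on neither strand. It had 428 reads in all. The C. chinense libraries had 7, 1, 1 and 132 of them, and those of C. frutescens had 63, 162, 24 and 38. It thus supplied 34.5% (29.7 to 39.5) of the miR398 reads in C. chinense leaf and 41.0% (36.1 to 46.0) in C. frutescens flower. What RNA these reads come from was not tested.

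Over the entries with the core alone, miR398 stood at 63.7, 38.0, 163 and 307 RPM of all listed reads in C. chinense and at 3092, 565, 9888 and 669 RPM in C. frutescens. The species still did not overlap, with flower lowest in both. The share in flower was 14.9-fold (10.6 to 21.3) higher in C. frutescens, against 24.0-fold over all entries. By core the ratio was 48.5-fold in stem, 60.7-fold in fruit and 2.18-fold in leaf. The ratio of miR398 to miR408 by core lay between 0.312 and 0.750 in C. chinense and between 2.04 and 18.5 in C. frutescens. The difference between species was then 8.44-fold.

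The core-bearing miR398 sequences were sorted into 2 variants by the base at position 13, G or A, counted from 1 at the first base of the core. Sequences of the 2 variants also differed at other bases outside the core, and each variant pools several entries. Of the sequences shown above, gma-miR398c has the G and stu-miR398b-3p the A. The A variant held 1098 of 13652 core reads, or 8.04% (7.59 to 8.51). It was scarcest in C. chinense leaf at 5.22% (2.81 to 8.76), C. frutescens stem at 5.97% (5.20 to 6.80) and C. frutescens fruit at 7.98% (7.44 to 8.55). In the other 5 libraries it held 18.9% to 31.7%. These were the 3 libraries with the most core reads of miR398. The printed sequence stands for all reads of its entry, so these shares are shares of entries' reads.

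Other families known to respond to nutrients were set beside the copper families from a fixed list of 5. miR395, which targets sulfate assimilation genes, and miR399, which targets the phosphate regulator PHO2, passed the filter, with log2 fold changes between species of -0.27 (SE 1.09) and 0.69 (SE 1.02). The edgeR test called 0 of their 10 pairs of family and contrast, none with an unadjusted p under 0.05. miR827, which targets phosphate transport genes, had 597 reads in C. frutescens fruit and 1 to 7 in each other library. miR2111 had 0 to 5 reads in a library, and miR778 had none.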

How the data were processed

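Small RNA was sequenced in 8 libraries of pooled RNA, 1 per species and organ, per the labels' protocols, on an Illumina platform with TruSeq libraries. The authors deposited raw read counts per miRNA entry, per the file headers. Not given in the sources used here are trimming, aligner, database release and mismatches allowed. The conserved sheets of C. chinense stem and leaf held 1 empty line each.

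Entries were summed to families by miR number (Python 3.11.15, pandas 2.3.3, scipy 1.17.1, matplotlib 3.10.9), and an unlisted entry entered as 0. Contrasts used edgeR 4.0.16 (R 4.3.3) with TMM scaling and the model organ plus species, fitted on all 71 families. It leaves 3 residual degrees of freedom, and Benjamini-Hochberg adjusted p-values under 0.05 passed. TMM factors ranged from 0.565 to 2.09. P-values thus measure the spread of the species difference over organs, not between plants. Shares have Clopper-Pearson intervals, ratios exact conditional ones; reads carry no molecular identifiers. Fits and permutations were also run on simulated data as a check of the code. Those data held no organ effects, so the check does not cover the structure of these libraries. Alternatives included DESeq2 1.42.0, limma-voom (limma 3.58.1), other scalings and filters, and each library left out. Named families were the members, the 3 most alike by rho and a list of 5 nutrient families. Sequences shown are the 3 entries with most reads per family plus the best of each further arm. zma-miR398b-5p, stu-miR408a-5p and sbi-miR398 were added after values were seen. Members and lists were chosen with earlier results of these data known.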

Additional observations from a re-analysis of the deposited data

Results flagged for a closer look

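The place of leaf among the organs differed between the species for miR398, a difference that was not tested. Of all listed reads, C. chinense leaf had 472 RPM of miR398 and lay above the other 3 C. chinense organs, and C. frutescens leaf had 892 RPM and lay below the other 3 C. frutescens organs, although its interval (778 to 1018) overlapped that of C. frutescens flower (865 to 1056). With miR166 left out, leaf was at neither end in either species, and over entries with the core alone C. frutescens flower (565) lay below C. frutescens leaf (669).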

How the results depend on the processing

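No paired analysis by replicate number was possible because the labels give none; the species contrast was fitted with the organ as block, which pairs libraries by organ. The number of families called moved in several fits. Without a filter it was 3 between species, 1 in stem, 1 in fruit and 2 in leaf. With at least 50 reads it was 2 between species, with total listed reads 1 in fruit and 6 in leaf, and with DESeq2 12 between species, 5 in stem, 11 in flower, 13 in fruit and 13 in leaf. With each library left out it ranged from 0 to 4 between species, 0 to 1 in stem, 0 to 4 in flower, 0 to 6 in fruit and 0 to 9 in leaf. The cause was not tested.

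Among members, log2 fold changes turned sign in several fits. In stem miR398 became 0.072 with DESeq2 size factors, 0.073 with the DESeq2 test, 0.19 without miR166, 0.50 without a filter, 0.15 with at least 50 reads and 0.31 with core entries alone. In leaf miR398 became -0.90 with at least 50 reads, -0.31 with limma-voom and -0.43 with core entries, and miR408 became 0.0055 with DESeq2 size factors, 0.23 without a filter, 0.0097 with the DESeq2 test and 0.72 with total listed reads. With each library left out, miR408 ranged from -0.45 to 0.75 between species, -0.13 to 0.63 in fruit and -1.23 to 0.26 in leaf, miR398 from -0.96 to 0.90 in stem and -2.54 to 1.35 in leaf, and miR397 from -2.69 to 1.14 in stem, -5.70 to 3.64 in flower and -8.38 to 0.60 in leaf. The fitted extremes of miR397 rest on libraries without a read.

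The mean summed share of the families, 0.235%, was 0.759% without miR166 and 4.08% among printed sequences of 20 to 24 nt. Without miR166 the pairs at 4-fold or more numbered 2, and the miR408 ratio turned to 0.321 in flower and 0.843 in fruit. The share of all families at 4-fold or more was not counted on that total. Pearson's r lost its call without miR166 (0.605 for miR397 and miR398, 0.395 for miR398 and miR408), with TMM library sizes (0.740 and 0.630) and, for miR397 and miR398, when centred within species (0.683). With each library left out, r ranged from 0.683 to 0.858 for miR397 and miR398, 0.311 to 0.837 for miR397 and miR408 and 0.809 to 0.915 for miR398 and miR408. The 5p share was 2.39% when read from the printed sequence. Counting distinct sequences once changed nothing, as no sequence was repeated within a conserved sheet. The core-based settings were added after the data were seen. At the depth of C. frutescens leaf, the count of 0 for miR397 allows a level of up to 12.2 RPM.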
